A study of Homo sapiens with 22 samples.

Results

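The histone mark H3K27me3 was mapped in the human prostate cancer line 22Rv1, in cells overexpressing the linker histone variant H1-10 (H1-10 OE) and in control cells (Ctrl). The members are all regions of the H3K27me3 peak lists of these conditions, 18395 regions in H1-10 OE and 2540 in Ctrl, together 20935 of the 291055 regions in the 8 peak lists of the series. Each list comes from 1 library made with an antibody against H3K27me3, so differences have no replicate check, and p-values were not computed. The series holds 22 samples of chromatin immunoprecipitation followed by sequencing; besides H3K27me3, the lists of RNA polymerase II phosphorylated on serine 5 (Pol2S5p) and of the transcription factor E2F3 were used, each in H1-10 OE and in Ctrl. Another Pol2S5p list, of 83650 regions from cells with a control siRNA (siCtrl), served as an alternative; its sample label names no H1-10 overexpression, its peak names do. The H1-10 OE list of Pol2S5p held 40626 regions and the Ctrl list 35493, and the H1-10 OE list of E2F3 held 4296 and the Ctrl list 22988. How H1-10 was introduced, and what the control cells carried in its place, are not stated in the labels. No gene annotation of hg19, the build of the lists, was used, regions are named by their coordinates, and genes known as Polycomb targets and markers of the cell type were not analysed.

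H3K27me3 is the trimethylation of lysine 27 on histone H3. It is written by the EZH1 or EZH2 subunit of Polycomb repressive complex 2, whose EED subunit binds the finished mark and favours its spread to neighbouring nucleosomes, and it marks silenced developmental genes, often as broad domains. Pol2S5p is the polymerase form found around the start of transcription, and E2F3 is a factor best known for genes of the cell cycle. Linker histones such as H1-10 bind where DNA enters and leaves the nucleosome.

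A small part of the H1-10 OE list and a larger part of the Ctrl list were shared. Of the H1-10 OE regions, 517 overlapped a Ctrl region by at least 1 bp and 17878 did not, which is 97.2% of that list. In Ctrl, 569 regions were overlapped by the H1-10 OE list and 1971, or 77.6%, were not. In bins of 10 kb, 578 of the 11647 bins with an H1-10 OE region (4.96%) and of the 1657 bins with a Ctrl region (34.9%) held both lists, while of all bins 3.77% held an H1-10 OE region and 0.536% a Ctrl region. Many regions lay far from the other list: 74.3% of the H1-10 OE regions lay more than 100 kb from any Ctrl region, and 32.3% of the Ctrl regions lay as far from any H1-10 OE region. Just inside the limit, the smallest overlap was 4 bp, and 15 regions of each list overlapped by under 50 bp. Just outside it, the smallest gap to the other list was 3 bp, and 284 H1-10 OE regions and 141 Ctrl regions missed it by at most 1 kb. Read depth is unknown here, so a place without a region is a place where none was called, not one shown to lack the mark.

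In most overlapping pairs of regions, the H1-10 OE region was the wider. The overlaps formed 603 pairs, of which 436 had the wider region in H1-10 OE, 166 had it in Ctrl and 1 was of equal width. A wide region that met several regions of the other list counts in several pairs. In 251 pairs the Ctrl region lay wholly inside the H1-10 OE region, and in 54 pairs the H1-10 OE region lay wholly inside the Ctrl region. A single H1-10 OE region met up to 6 Ctrl regions, and 67 met 2 or more, while a single Ctrl region met up to 3 H1-10 OE regions, and 32 met 2 or more. The length in both lists was 285 kb, which is 2.82% of the H1-10 OE length and 18.8% of the Ctrl length.

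The regions of both lists, deposited as narrow peaks, were short for this mark. Width had a floor in each list, 299 bp up to percentile 13.0 in H1-10 OE and 293 bp up to percentile 5.5 in Ctrl. No gap within either list was under 0.15 kb. The part of the peak caller in widths, gaps and clusters was not tested, nor whether broad domains were split into several regions. Width ran from 299 bp to 10.3 kb in H1-10 OE, with a median of 433 bp, and from 293 bp to 5.76 kb in Ctrl, with a median of 460.5 bp. Regions of at least 1 kb made up 7.82% of the H1-10 OE list (95% Wilson interval 7.44 to 8.22%, which covers counting error only, as do all intervals below) and 10.9% of the Ctrl list (9.71 to 12.1%). All intervals take regions as independent, although many lie in clusters, so even for counting error they are likely too narrow. Shared regions were the wide ones in H1-10 OE: their median was 907 bp and 45.3% (41.0 to 49.6%) reached 1 kb, against 428.5 bp and 6.74% (6.38 to 7.12%) of the regions found in H1-10 OE only. In Ctrl the contrast was smaller, with a median of 523 bp and 16.3% (13.5 to 19.6%) at 1 kb among shared regions, and 449 bp and 9.28% (8.08 to 10.6%) among those found in Ctrl only. Sharing was defined by an overlap of at least 1 bp, which a wider region meets more easily. The part of this rule in the contrasts was not tested. All 8 H1-10 OE regions of at least 5 kb but 1 were shared, and of the 2 such Ctrl regions 1 was shared.

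Width went with strength within each list. In the strongest 10% of regions by the authors' -log10 p, the median width was 813.5 bp in H1-10 OE and 921.5 bp in Ctrl, and in the weakest 10% it was 393 bp in H1-10 OE and 411.5 bp in Ctrl. Shared regions were also the stronger ones in H1-10 OE, and less clearly so in Ctrl. The -log10 q reached 5 in 58.8% of the shared and 17.9% of the other regions of H1-10 OE. In Ctrl it did so in 34.4% of the shared and 24.6% of the other regions. Its median was 5.33 at shared and 3.24 at other regions of H1-10 OE, and 3.77 at shared and 3.71 at other regions of Ctrl. With -log10 q of at least 5 the median width was 671 bp in H1-10 OE and 655.5 bp in Ctrl. The difference of 15.5 bp (-36.2 to 59.4) is one that counting error does not separate from 0. The median fold enrichment at the summit, the authors' own value and not comparable between lists, was 5.21 at shared and 4.38 at other regions of H1-10 OE, and 4.98 at shared and 4.75 at other regions of Ctrl.

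**Figure D1:**
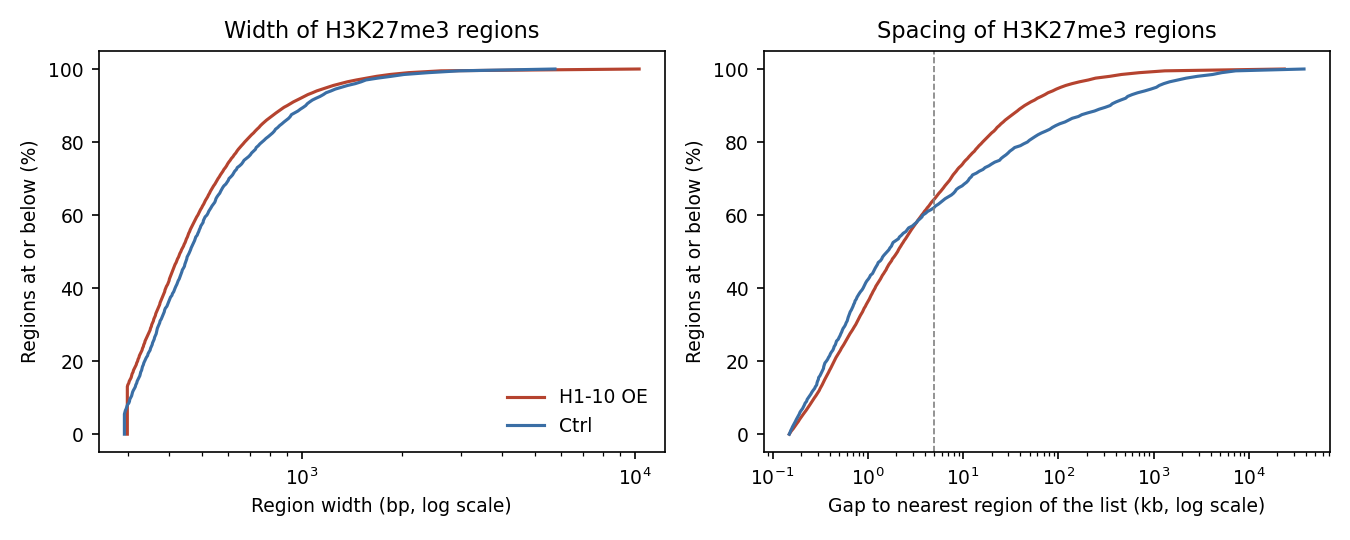
Cumulative share of H3K27me3 regions (%) by width in bp (left) and by gap to the nearest region of the same list in kb (right), both on log axes, for the H1-10 OE list (red, 18395 regions) and the Ctrl list (blue, 2540 regions); the dashed line marks 5 kb. The width curves run close together with medians of 433 bp in H1-10 OE and 460.5 bp in Ctrl, and the spacing curves cross below 5 kb: within 1 kb the share with a neighbour is 36.2% in H1-10 OE and 42.3% in Ctrl, and within 5 kb it is 64.4% in H1-10 OE and 62.0% in Ctrl.

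Clusters were common among the regions of each list as deposited. The H1-10 OE list was much the longer, and more regions bring closer neighbours by number alone. The shares and domain counts below thus do not compare clustering at equal list length. A neighbour of the same list lay within 5 kb of 64.4% of the H1-10 OE regions (63.7 to 65.0%) and of 62.0% of the Ctrl regions (60.1 to 63.9%), and the median gap was 2.06 kb in H1-10 OE and 1.60 kb in Ctrl. Within 1 kb the order was the other way, with 36.2% (35.5 to 36.9%) in H1-10 OE and 42.3% (40.4 to 44.2%) in Ctrl. Among regions with -log10 q of at least 5, 43.2% of 3496 in H1-10 OE and 47.2% of 680 in Ctrl had a neighbour of that strength within 5 kb.

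Regions up to 5 kb apart were joined into domains, 9870 in H1-10 OE and 1423 in Ctrl. Domains of at least 5 regions numbered 542 in H1-10 OE and 77 in Ctrl, and they held 32.2% of the H3K27me3 length in H1-10 OE and 31.4% in Ctrl. Such domains were gapped: at the median, regions filled 32.4% of the span in H1-10 OE and 41.2% in Ctrl, over median spans of 13.1 kb in H1-10 OE and 12.1 kb in Ctrl. Domains of at least 10 regions numbered 150 in H1-10 OE and 15 in Ctrl, and the largest had 74 regions in H1-10 OE and 28 in Ctrl. Of the domains of at least 5 regions, 437 of 542 in H1-10 OE and 47 of 77 in Ctrl held no region of the other list. The other list covered more than the domain's own list in 1 of the 542 of H1-10 OE and in 8 of the 77 of Ctrl. Chromosome 12 had the most such domains of H1-10 OE, 85, and chromosome 7 the most of Ctrl, 22.

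The 5 domains with the most covered length in H1-10 OE held little H3K27me3 of Ctrl. The first, on chromosome 7 at 155596109 to 155729163, had 74 regions that covered 53.6 kb in H1-10 OE, against 5.07 kb in Ctrl. E2F3 regions of Ctrl covered 2.48 kb of it. The second, on chromosome 7 at 157329926 to 157438551, had 62 regions over 49.8 kb in H1-10 OE, against 1.37 kb in Ctrl. The third, on chromosome 17 at 77309429 to 77388857, had 41 regions over 47.1 kb in H1-10 OE, against 0.955 kb in Ctrl. The other 2 lay on chromosome 7 at 155807685 to 155899914, with 44.9 kb in H1-10 OE and 1.54 kb in Ctrl, and on chromosome 8 at 142516977 to 142601667, with 40.9 kb in H1-10 OE and none in Ctrl. None of these 5 domains held a Pol2S5p region of H1-10 OE or of Ctrl.

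The 5 leading domains of Ctrl likewise held little H3K27me3 of H1-10 OE, and 4 of them held Pol2S5p of H1-10 OE. The first, on chromosome 7 at 1260605 to 1338435, covered 0.742 kb in H1-10 OE and 45.9 kb in Ctrl, in 28 regions with a fold enrichment of up to 12.8. Pol2S5p covered 1.58 kb of it in H1-10 OE and 0 kb in Ctrl. The second, on chromosome 10 at 135010682 to 135052780, covered 1.25 kb in H1-10 OE and 20.6 kb in Ctrl, and held no Pol2S5p of H1-10 OE or Ctrl. The third, on chromosome 16 at 1199035 to 1248241, covered 0 kb in H1-10 OE and 19.0 kb in Ctrl, with 1.11 kb of Pol2S5p in H1-10 OE and 0 kb in Ctrl. The fourth, on chromosome 7 at 161465 to 197820, covered 0.299 kb in H1-10 OE and 15.7 kb in Ctrl, with 1.20 kb of Pol2S5p in H1-10 OE and 0 kb in Ctrl. The fifth, on chromosome 7 at 1695695 to 1719399, covered 3.62 kb in H1-10 OE and 15.7 kb in Ctrl, with 1.28 kb of Pol2S5p in H1-10 OE and 0 kb in Ctrl. All 5 held E2F3 regions of Ctrl, from 0.241 to 2.13 kb, and none of E2F3 of H1-10 OE. Of these 10 domains, 6 lay on chromosome 7, those of Ctrl near its low-coordinate end and those of H1-10 OE near the other end.

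**Figure D2:**
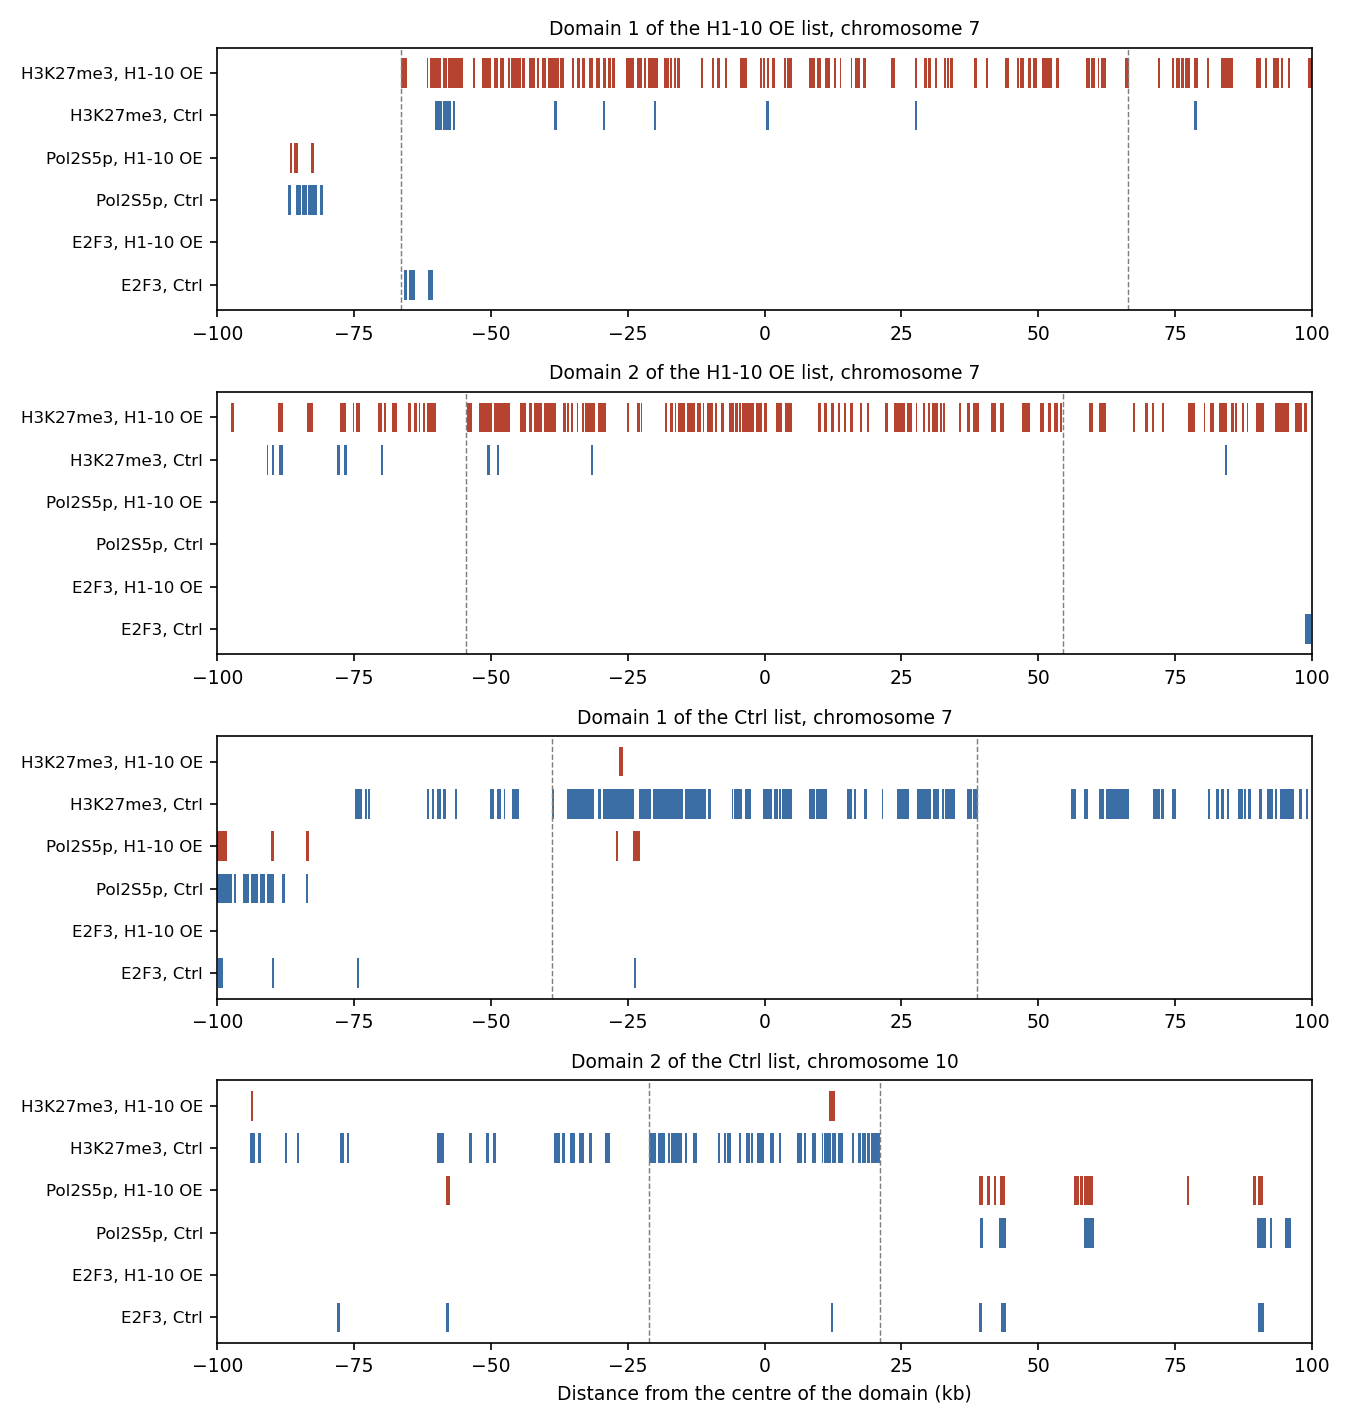
Regions around the 2 domains with the most H3K27me3 length in the H1-10 OE list (upper panels, both on chromosome 7) and in the Ctrl list (lower panels, chromosomes 7 and 10), drawn to scale by distance in kb from the centre of each domain, with H1-10 OE lists in red and Ctrl lists in blue; dashed lines mark the ends of the domain. The upper domains hold 53.6 and 49.8 kb of H3K27me3 in H1-10 OE against 5.07 and 1.37 kb in Ctrl, the lower ones 0.742 and 1.25 kb in H1-10 OE against 45.9 and 20.6 kb in Ctrl.

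The distance to Pol2S5p asks whether the regions that differed lay near initiating polymerase, and in which condition. Regions found in Ctrl only lay near Pol2S5p of H1-10 OE far more often than near Pol2S5p of Ctrl. Within 5 kb of a Pol2S5p region of H1-10 OE lay 2.86% of the regions found in H1-10 OE only (2.63 to 3.12%) and 28.6% of those found in Ctrl only (26.6 to 30.6%), a difference of -25.7 points (Newcombe interval -27.7 to -23.7). Within 5 kb of a Pol2S5p region of Ctrl lay 4.41% of the regions found in H1-10 OE only (4.12 to 4.72%) and 5.12% of those found in Ctrl only (4.24 to 6.19%), a difference of -0.711 points (-1.81 to 0.231), which counting error alone does not separate from 0. The median distance of regions found in Ctrl only was 23.4 kb to Pol2S5p of H1-10 OE and 70.6 kb to Pol2S5p of Ctrl. For regions found in H1-10 OE only these medians were 212 kb and 221 kb, and 86.1% and 85.1% lay more than 50 kb from Pol2S5p of H1-10 OE and of Ctrl. Against the siCtrl list of Pol2S5p, 4.00% of the regions found in H1-10 OE only and 37.1% of those found in Ctrl only lay within 5 kb. The 28.6% near Pol2S5p of H1-10 OE is thus not shown to be particular to H1-10 overexpression.

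Of the 1971 regions found in Ctrl only, 482 (24.5%, 22.6 to 26.4%) were near Pol2S5p of H1-10 OE and not of Ctrl, 20 (1.01%) near that of Ctrl alone, 81 (4.11%) near both and 1388 (70.4%) near neither. Of the 17878 regions found in H1-10 OE only, 205 (1.15%, 1.00 to 1.31%) were near Pol2S5p of H1-10 OE alone, 482 (2.70%, 2.47 to 2.94%) near that of Ctrl alone, 307 (1.72%) near both and 16884 (94.4%) near neither. Regions called in one list only were thus, in each list, more often beside Pol2S5p of the other condition alone than beside Pol2S5p of their own condition alone. For the H1-10 OE list both shares were low, at 2.70% and 1.15%, and the bins below set such shares against a background. Direct overlap ran the same way: 11.4% (10.0 to 12.8%) of the regions found in Ctrl only overlapped Pol2S5p of H1-10 OE and 0.660% (0.386 to 1.13%) that of Ctrl. Of the regions found in H1-10 OE only, 0.901% (0.772 to 1.05%) overlapped Pol2S5p of H1-10 OE and 1.95% (1.75 to 2.16%) that of Ctrl.

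Bins of 10 kb over the whole genome gave the background for these shares, which was not matched for place on the chromosome. Within 5 Mb of a chromosome end, 8.00% of the mapped span, lay 63.8% of the regions found in Ctrl only. There lay also 17.6% of the Pol2S5p regions of H1-10 OE, so a background near the ends would be higher. Over all 309280 bins, 8.54% held Pol2S5p of H1-10 OE and 7.73% that of Ctrl, with 2.61% in H1-10 OE only and 1.80% in Ctrl only. Of the 11069 bins with H3K27me3 in H1-10 OE only, 3.58% of all bins, 0.967% held Pol2S5p in H1-10 OE only and 2.38% in Ctrl only. Of the 578 bins with H3K27me3 in both lists, 0.187% of all bins, 11.2% held Pol2S5p in H1-10 OE only and 1.21% in Ctrl only. Of the 1079 bins with H3K27me3 in Ctrl only, 0.349% of all bins, 23.6% held Pol2S5p in H1-10 OE only and 1.02% in Ctrl only. The 23.6% and the 11.2% are above their background of 2.61%, so a share above the background was also seen where H3K27me3 was called in both conditions. The 2.38% is close to its background of 1.80%, while the 0.967% is below its background of 2.61%. The 1.21% and the 1.02% are below their background of 1.80%. For bins with H3K27me3 in H1-10 OE only, the order of the shares thus came with a low share of Pol2S5p in H1-10 OE only.

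The pattern of regions found in Ctrl only was spread over the chromosomes. On each of the 21 chromosomes with at least 20 regions found in Ctrl only, more of them lay within 5 kb of Pol2S5p of H1-10 OE than of Ctrl. The shares near Pol2S5p of H1-10 OE ran from 14.1% on chromosome 7 to 59.3% on chromosome 15, and those near Pol2S5p of Ctrl from 0 to 18.4%. Regions found in H1-10 OE only were more often near Pol2S5p of Ctrl on 20 of 23 chromosomes, the exceptions being chromosomes 1, 6 and 17. This is an order between low shares, with medians over chromosomes of 2.76% near Pol2S5p of H1-10 OE and 4.47% near that of Ctrl. Of all 10-kb bins, 8.54% held Pol2S5p of H1-10 OE and 7.73% that of Ctrl. Of the shared regions, 17.0% of those of H1-10 OE and 16.0% (13.2 to 19.2%) of those of Ctrl lay near Pol2S5p of H1-10 OE, between the shares of the other classes. Near Pol2S5p of Ctrl lay 8.12% (6.07 to 10.8%) of those of H1-10 OE and 7.91% (5.96 to 10.4%) of those of Ctrl.

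Large domains of Ctrl showed the same division, while for those of H1-10 OE both shares were low. Pol2S5p of H1-10 OE overlapped 14 of the 542 H1-10 OE domains of at least 5 regions (2.58%, 1.54 to 4.29%) and 24 of the 77 of Ctrl (31.2%, 21.9 to 42.2%). Pol2S5p of Ctrl overlapped 29 of the 542 of H1-10 OE (5.35%, 3.75 to 7.58%) and 2 of the 77 of Ctrl (2.60%, 0.715 to 8.98%). The siCtrl list of Pol2S5p overlapped 20 of the 542 (3.69%) and 33 of the 77 (42.9%). Of all 10-kb bins, 8.54% held Pol2S5p of H1-10 OE and 7.73% that of Ctrl. The 31.2% is above these shares, and the 2.58%, 5.35% and 2.60% are below them. Bins and domains were not matched in length or place. Domains with the most Pol2S5p of the other condition, chosen after their values were seen, show both directions. On chromosome 16 at 86527539 to 86549694, H3K27me3 covered 0 kb in H1-10 OE and 10.2 kb in Ctrl, and Pol2S5p covered 4.53 kb in H1-10 OE and 0 kb in Ctrl. On chromosome 12 at 119515997 to 119540858, H3K27me3 covered 6.83 kb in H1-10 OE and 0 kb in Ctrl, and Pol2S5p covered 0 kb in H1-10 OE and 23.9 kb in Ctrl. An exception stood among the Ctrl domains: on chromosome 5 at 475677 to 498776, with 0 kb of H3K27me3 in H1-10 OE and 10.3 kb in Ctrl, Pol2S5p covered 5.84 kb in H1-10 OE and 5.01 kb in Ctrl.

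The distance to E2F3 asks the same of this factor, whose list was the shorter in H1-10 OE. H3K27me3 regions of both lists lay near E2F3 of Ctrl, a list of 22988 regions, more often than near E2F3 of H1-10 OE, a list of 4296. Within 5 kb of E2F3 of H1-10 OE lay 0.0447% of the regions found in H1-10 OE only (8 regions) and 0.152% of those found in Ctrl only (3 regions). Within 5 kb of E2F3 of Ctrl lay 7.64% of the regions found in H1-10 OE only (7.26 to 8.04%) and 30.9% of those found in Ctrl only (28.9 to 33.0%), a difference of -23.3 points (-25.4 to -21.2). Shared regions were the most often near E2F3 of Ctrl, at 40.4% (36.3 to 44.7%) of those of H1-10 OE and 43.1% (39.0 to 47.2%) of those of Ctrl, and 0 of either were near E2F3 of H1-10 OE. Over all 10-kb bins, 1.25% held an E2F3 region of H1-10 OE and 6.73% one of Ctrl. The 7.64% is close to the 6.73%, and the 30.9%, 40.4% and 43.1% are above it. The 0.0447% and the 0.152% are below the 1.25%. As for Pol2S5p, this background was not matched for place on the chromosome. The E2F3 lists were also spread unlike each other. Chromosome 13 held 549 E2F3 regions in H1-10 OE and 488 in Ctrl, and chromosome 19 held 32 in H1-10 OE and 1673 in Ctrl. Within 2 Mb of a chromosome end lay 1.23% of the E2F3 regions of H1-10 OE and 8.67% of those of Ctrl. The part of list length and spread in these shares was not tested. The names of the peaks carry another folder label in the E2F3 lists than in the H3K27me3 and Pol2S5p lists, and the part of any difference in processing in these shares was not tested.

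**Figure D3:**
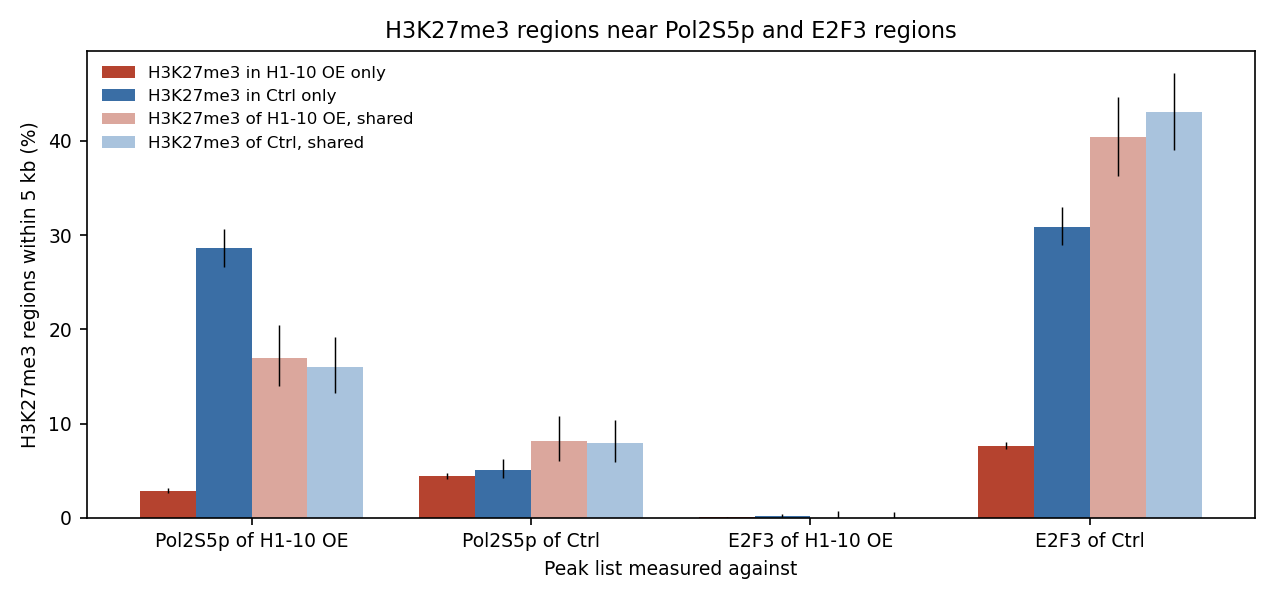
Share of H3K27me3 regions (%) within 5 kb of a Pol2S5p or E2F3 region of H1-10 OE or Ctrl, for regions found in H1-10 OE only (dark red, 17878), in Ctrl only (dark blue, 1971), and shared regions of H1-10 OE (light red, 517) and Ctrl (light blue, 569); bars start at 0 and error bars are 95% Wilson intervals for counting error. Regions found in Ctrl only stand at 28.6% beside Pol2S5p of H1-10 OE and 5.12% beside that of Ctrl, while shared regions lead beside E2F3 of Ctrl at 40.4% of those of H1-10 OE and 43.1% of those of Ctrl.

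The lists were spread unevenly over the chromosomes. The ratio of H1-10 OE to Ctrl regions ran from 0.717 on chromosome 13, with 43 regions in H1-10 OE and 60 in Ctrl, to 33.1 on chromosome 3, with 795 in H1-10 OE and 24 in Ctrl. Chromosome 13 was the only chromosome other than Y with fewer regions in H1-10 OE. Chromosome 7 held 10.7% of the H1-10 OE regions (10.3 to 11.2%) and 18.7% of the Ctrl regions (17.2 to 20.3%), the largest share in either list. Chromosome X held 1319 regions in H1-10 OE and 0 of 2540 in Ctrl, although the Pol2S5p lists had 1315 regions there in H1-10 OE and 879 in Ctrl, and the E2F3 lists 105 in H1-10 OE and 565 in Ctrl. Chromosome Y held 0 H3K27me3 regions in H1-10 OE and 2 in Ctrl, and 0 Pol2S5p regions in H1-10 OE and 26 in Ctrl. Whether the cells of the libraries differed in anything other than H1-10 was not tested.

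**Figure D4:**
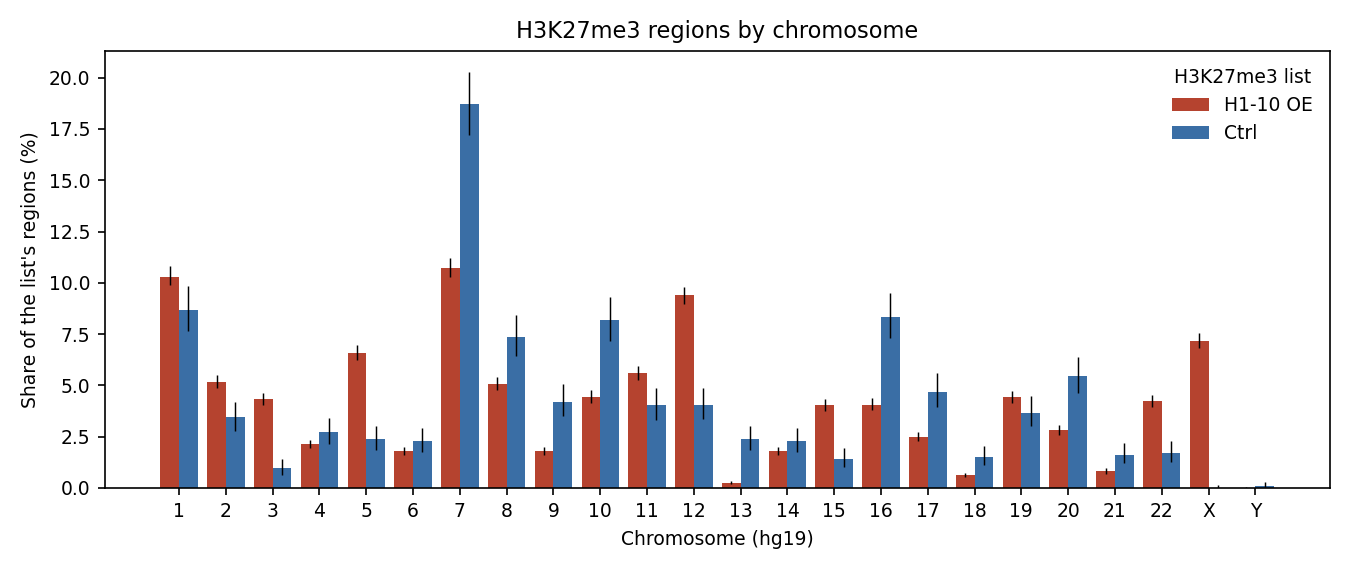
Share of each H3K27me3 list (%) on each chromosome of hg19, for H1-10 OE (red, 18395 regions) and Ctrl (blue, 2540 regions), with 95% Wilson intervals for counting error. Chromosome 7 stands at 10.7% in H1-10 OE and 18.7% in Ctrl, and chromosome X at 7.17% in H1-10 OE with no Ctrl region.

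Regions of both lists gathered toward the ends of chromosomes, those of Ctrl more so. Ends were taken as the outermost regions of any list. Within 5 Mb of an end, which is 8.00% of the mapped span, lay 27.3% of the H1-10 OE regions (26.6 to 27.9%) and 61.3% of the Ctrl regions (59.4 to 63.2%). Within 2 Mb, 3.20% of the span, lay 10.1% of the H1-10 OE regions (9.72 to 10.6%) and 42.4% of the Ctrl regions (40.5 to 44.4%). Of the shared regions, 52.6% (48.3 to 56.9%) of those of H1-10 OE and 52.7% (48.6 to 56.8%) of those of Ctrl lay within 5 Mb. Of the Pol2S5p regions, 17.6% in H1-10 OE and 17.1% in Ctrl lay within 5 Mb of an end. Within 2 Mb lay 9.63% of the Pol2S5p regions of H1-10 OE and 9.71% of those of Ctrl, close to the 10.1% of H3K27me3 in H1-10 OE.

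Ends of the same chromosome could go in opposite directions. The first 5 Mb of chromosome 7 held 13.3 kb of H3K27me3 regions in H1-10 OE and 195 kb in Ctrl, while its last 5 Mb held 624 kb in H1-10 OE and 88.7 kb in Ctrl. The last 5 Mb of chromosome 8 held 228 kb in H1-10 OE and 8.95 kb in Ctrl. On chromosome 16 both ends held less in H1-10 OE, with 35.7 kb in H1-10 OE and 67.3 kb in Ctrl in the first 5 Mb, and 39.2 kb in H1-10 OE and 64.1 kb in Ctrl in the last. The last 5 Mb of chromosome 12 held 388 kb in H1-10 OE and 29.3 kb in Ctrl, and those of chromosome 22 held 316 kb in H1-10 OE and 8.18 kb in Ctrl.

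**Figure D5:**
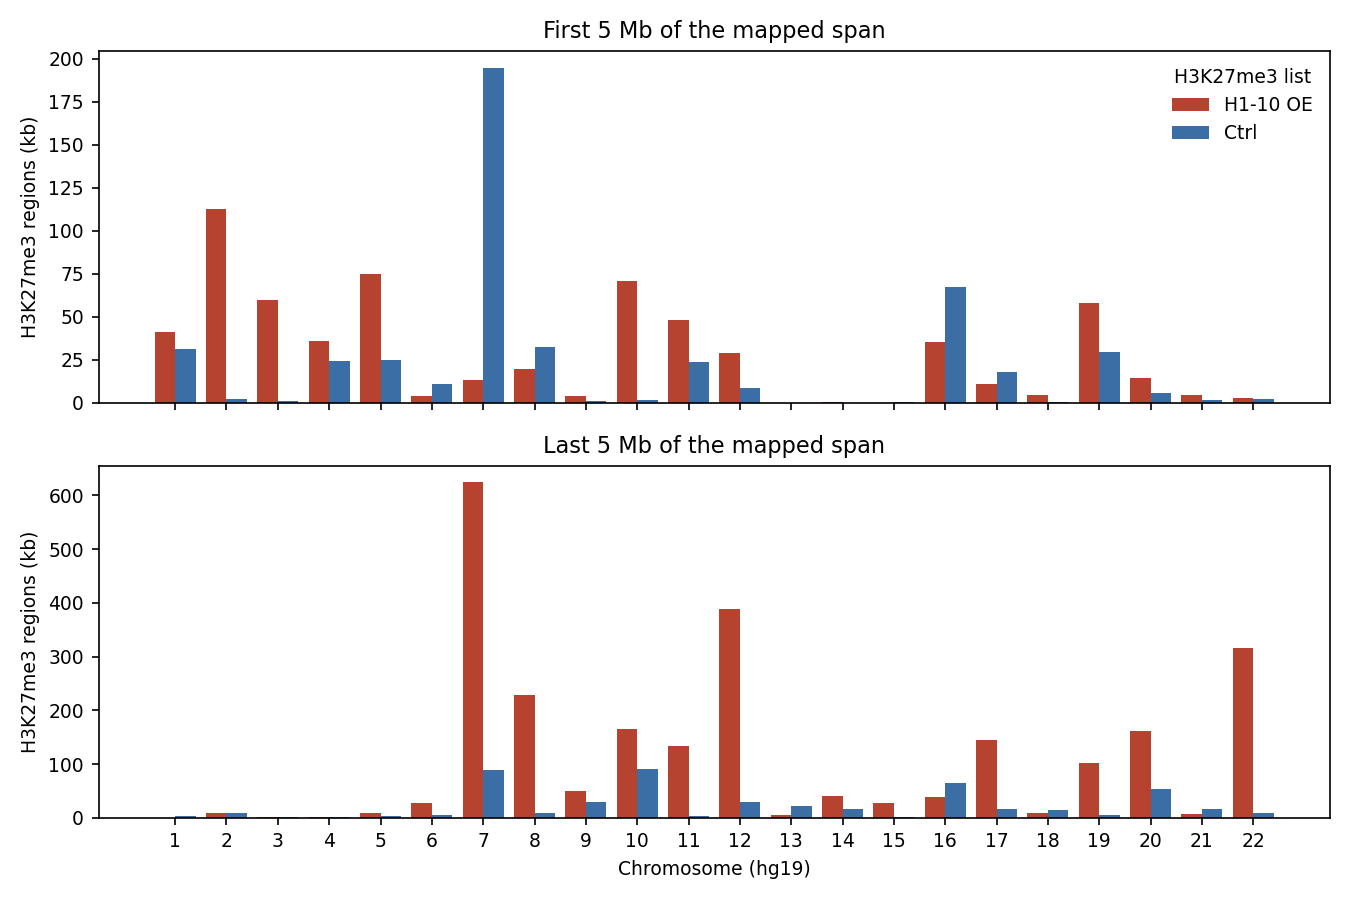
H3K27me3 length in kb in the first 5 Mb (upper panel) and last 5 Mb (lower panel) of the mapped span of each autosome, for H1-10 OE (red) and Ctrl (blue); 1 library each, and the panels have different scales. Chromosome 7 has 13.3 kb in H1-10 OE against 195 kb in Ctrl at its first end, and 624 kb in H1-10 OE against 88.7 kb in Ctrl at its last.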

How the data were processed

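The submitters' processing notes name hg19 as the build and the tools Bowtie, fastp and FastQC. Not given in the sources used here are tool versions, the caller with its threshold, and the input used. The authors called peaks per library. The deposited columns are a score, the summit's fold enrichment (a ratio), and -log10 p and -log10 q; only positions, fold and these values were used. Read depth is unknown.

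Groups came from the sample labels. Overlap of at least 1 bp, width, the gap to the nearest region of the same list, domains of regions up to 5 kb apart, and distances to Pol2S5p and E2F3 were computed with scipy 1.17.1, pandas 2.3.3 and numpy 2.4.6 in Python 3.11.15, and plotted with matplotlib 3.10.9. The code was tested on simulated lists and against bedtools 2.31.1. Shares carry 95% Wilson intervals, and differences in shares between sets of regions carry Newcombe intervals. The interval of a difference in median width came from binomial limits on the ranked widths of each list. Whether a difference in shares near Pol2S5p or E2F3 moved was judged by a normal interval for paired shares. All are for counting error only, with regions taken as independent although many lie in clusters. With 1 library per group no test was made. Coordinates are 1-based on hg19. No p-value was computed.

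The members, gene lists and comparisons were chosen with earlier results of these data known. The 5 domains with the most covered length in each list were named by rule; domains named for their Pol2S5p were chosen after their values were seen. The planned counts at Polycomb target genes, the marker check of the cell type and the sequences at summits need an hg19 annotation or genome that was not used here, and were not analysed. Gene positions written from general knowledge were tried and set aside, since no source used here gives them, and nothing from them is reported. The background over all protein-coding genes was replaced by 10-kb bins. Alternatives were equal numbers of the strongest peaks, a stricter -log10 q of 5, other overlap, joining and near distances, the siCtrl list of Pol2S5p, and chromosomes X and 7 left out. The stricter -log10 q was applied to every list, those of Pol2S5p and E2F3 included. Regions found in H1-10 OE only or in Ctrl only were then defined anew.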

Additional observations from a re-analysis of the deposited data

How the results depend on the processing

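No paired analysis was possible because each group has 1 library and the result comes from no test. Of 41 alternative values, 15 stayed within the counting error or within 1.5 times the count, 21 moved in size alone and 5 turned in direction. Regions in H1-10 OE only numbered 3368 with -log10 q of at least 5 and 2278 with equal numbers of the strongest peaks, and those in Ctrl only 538 with the first. Median width, H1-10 OE minus Ctrl, was -27.5 bp and turned to 15.5 bp (-36.2 to 59.4) with -log10 q of at least 5 and 278 bp with equal numbers. The share with a neighbour, H1-10 OE minus Ctrl, was 2.31 points; it turned to -6.05 with joining at 1 kb, -3.99 (-8.08 to 0.0894) with -log10 q of at least 5 and -21.8 with equal numbers, and was 9.47 at 25 kb. The intervals given include 0. Equal numbers cut the H1-10 OE list alone to its strongest peaks, which by construction raises its width and removes neighbours, so the 278 bp and -21.8 points say nothing on the conditions.

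The share of regions near Pol2S5p, H1-10 OE list minus Ctrl list, kept its sign in every alternative run. For regions in Ctrl only it was 23.4 points, and 15.7 at 1 kb, 28.8 at 20 kb, 25.7 with -log10 q of at least 5, 32.0 with the siCtrl list, and 26.2 without chromosome 7, the last chosen after seeing the data. Whether the siCtrl cells overexpressed H1-10 is not settled, since the sample label does not say so and the peak names do. No value with the siCtrl list is thus read as one of H1-10 overexpression. That list held 83650 regions, against 35493 in the Ctrl list, and the part of list length in the 32.0 points was not tested. The 32.0 points are thus no check of the sign, and by the sample label that run compares controls with each other. For regions in H1-10 OE only the difference in shares near Pol2S5p was -1.55 points, and -1.24 at 1 kb, -3.53 with -log10 q of at least 5, -3.82 with equal numbers and -0.414 with the siCtrl list. The same difference for E2F3 was -7.60 points for regions in H1-10 OE only, and -4.70 at 1 kb, -14.3 at 20 kb, -14.4 with -log10 q of at least 5 and -16.9 with equal numbers; for regions in Ctrl only it was -30.7, and -18.4 at 1 kb and -52.5 at 20 kb. With -log10 q of at least 5, the share on chromosome 7, H1-10 OE minus Ctrl, was -6.20 points in place of -7.98, and that on chromosome X 4.61 in place of 7.17. Where no reason is given, the cause was not tested. In the runs with -log10 q of at least 5, the Pol2S5p and E2F3 lists were cut at that value too, so the lists measured against changed. Unknown depth limits every count of regions. The alternatives planned for Polycomb target genes were not run.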
